A study of Mus musculus with 24 samples.

Results

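Decidual prolactins and regulators of decidualization were followed at the mouse maternal-fetal interface (MFI), the place where the placenta meets the uterus. The 7 genes were picked by name as genes of the maternal decidual stroma, and all 7 were found among the 55401 genes of the read count table. They comprise the prolactin family members Prl8a2, Prl3c1 and Prl6a1, the transcription factor gene Hand2, the growth factor gene Bmp2, the cytokine receptor gene Il11ra1 and the phosphatase gene Alpl. Polyadenylated RNA of the MFI was sequenced from wild-type (WT) mice and from homozygous C1qtnf6-KO mice at 4 gestation days, gd10.5 and gd14.5 as well as gd16.5 and gd19.5, with 3 libraries in each of the 8 groups. All animals were on the C57BL/6 background. The KO mice were engineered with CRISPR/Cas9 in C1qtnf6, which encodes the secreted protein CTRP6, and were a single line from a commercial breeder. The deletion is not limited to a cell type, and the sampled tissue holds maternal and fetal cells in 1 piece. No label says whether the libraries of a group came from separate mothers, so the p-values measure the spread between these libraries only. In such bulk samples, fewer cells of a type and less RNA per cell cannot be told apart.

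Decidualization is the change of uterine stromal fibroblasts into large secretory cells around the implanting embryo. Progesterone drives it through its receptor, and Hand2, Bmp2 and interleukin 11 acting on the receptor encoded by Il11ra1 are among the factors required for it in mice. The resulting decidual cells secrete prolactin-like hormones, while alkaline phosphatase, the product of Alpl, has long served as a histochemical mark of decidualizing stroma. The mouse genome holds a cluster of prolactin family genes, most of which are expressed by trophoblast and a few by the decidua.

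Prl3c1, Prl6a1 and Prl8a2 lie in this cluster on chromosome 13 of GRCm38, where they are the 7th, 10th and 11th of 25 genes named Prl with a number. Of these, 22 lie between positions 27094190 and 28151611, and Prl2c3, Prl2c2 and Prl2c5 lie apart, at 12790816 to 13191923. Prl3c1 spans positions 27196659 to 27203749, Prl6a1 27312627 to 27319252 and Prl8a2 27345673 to 27354216, all on the plus strand. Hand2 is at 57320983 to 57324633 on chromosome 8 and Bmp2 at 133552159 to 133562885 on chromosome 2, both on the plus strand. Il11ra1 at 41699989 to 41769474 (plus) and Alpl at 137741733 to 137796384 (minus) are on chromosome 4. The promoter sequences below, 250 bases up to the annotated start and taken from RefSeq (GRCm38.p6), are shown for Prl3c1 and Prl6a1, near neighbours whose levels moved in opposite directions between gd10.5 and gd14.5, and for Hand2. They cover chr13:27196410-27196659 (plus), chr13:27312377-27312626 (plus) and chr8:57320733-57320982 (plus), and capitals mark the motif matches described after them.
Prl3c1: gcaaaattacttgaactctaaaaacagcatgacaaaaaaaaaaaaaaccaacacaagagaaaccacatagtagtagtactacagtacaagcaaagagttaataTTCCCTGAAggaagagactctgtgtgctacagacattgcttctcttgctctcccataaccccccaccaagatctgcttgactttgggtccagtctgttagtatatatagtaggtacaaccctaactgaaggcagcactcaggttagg
Prl6a1: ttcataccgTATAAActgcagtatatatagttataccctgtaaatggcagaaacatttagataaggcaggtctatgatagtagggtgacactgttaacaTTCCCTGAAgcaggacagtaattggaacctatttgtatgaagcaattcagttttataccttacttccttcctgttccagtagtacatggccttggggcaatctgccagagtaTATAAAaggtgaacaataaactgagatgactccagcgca
Hand2: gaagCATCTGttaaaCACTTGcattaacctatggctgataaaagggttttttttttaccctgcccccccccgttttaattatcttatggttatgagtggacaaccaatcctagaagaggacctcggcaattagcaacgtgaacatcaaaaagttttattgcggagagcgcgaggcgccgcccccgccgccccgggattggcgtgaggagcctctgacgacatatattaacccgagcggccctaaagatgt

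The 9 letters TTCCCTGAA, a match to the STAT site motif TTCNNNGAA, stood 147 bases before the start of Prl3c1 and 151 bases before that of Prl6a1. This motif, searched on both strands, was present in 7.02% of 32851 promoters of the same length. STAT5 is the factor through which prolactin receptors signal. The Prl6a1 promoter also held the TATA box letters TATAAA, searched on the given strand, 39 and 241 bases before the start (7.59% of promoters). Hand2, which encodes a basic helix-loop-helix factor, had 2 matches to the E-box CANNTG, as had 66.2% of promoters at least 1. The half-site AGAACA of the progesterone and glucocorticoid receptors, searched on both strands, was not in these windows (16.1% of promoters). A match is a run of letters and not a measured binding site.

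Total counts per library lay between 20975717 and 37383108, and the detection limit was set at 3 counts, which was 0.0773 to 0.149 in CPM, counts scaled to a common library total. C1qtnf6 was at 64.7 to 168 CPM in the WT libraries and 0.0341 to 2.05 CPM in the KO libraries, and was lower in KO at every stage by the edgeR quasi-likelihood test (log2 fold changes of -7.42, -8.17, -6.45 and -7.00 in order of stage, highest adjusted p = 0.00975). Replicates were not the same library deposited again: over the 24 pairs within groups, the chi-square divided by its degrees of freedom was 7.86 to 169. The 2 highest values, 126 and 169, belonged to pairs with KO gd10.5 replicate 2. This library stood apart from the other 5 of gd10.5. The summed level of 6 spongiotrophoblast and glycogen cell markers was 14090 CPM there against 1002 to 2318 CPM, with 5 of the 6 at their highest, and the 5 labyrinth trophoblast markers summed to 535.8 CPM against 313.7 to 472 CPM. The 5 NK cell markers summed to 361.2 CPM against 672.9 to 1016 CPM, and 30 regulators of decidualization to 2646 CPM against 3451 to 4744 CPM. Sums of the 9 uterine stroma markers were 2802 to 3897 CPM over the KO libraries of gd10.5 and 2761 to 3860 CPM in WT. In KO replicate 2, 4 of these 9 were at their lowest and 2 at their highest. Results of the 7 genes that rest on it are also given without it, and the part of cell makeup in those results was not tested.

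The labelled tissue was checked by its markers. All 9 uterine stroma markers passed the expression filter in each comparison and summed to between 2761 and 5815 CPM over the 24 libraries. None of the lists of cell markers had a gene at 0 throughout, and Il11ra2, the near-identical copy of Il11ra1, was the only gene of all lists that was at 0 in the 24 libraries. Yolk sac endoderm markers varied most between libraries of 1 group, from 8.13 to 2464 CPM in WT gd10.5 and from 101.0 to 15920 CPM in KO gd16.5.

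Prl8a2, which encodes decidual prolactin-related protein, was by far the most abundant of the genes. Its CPM at gd10.5 was 12660, 7899 and 5376 in the WT libraries and 2929, 1943 and 10450 in the KO libraries. The spread within each genotype was thus larger than 2-fold, and the genotypes overlapped. Compared per kilobase of exon length (RPKM), Prl8a2 reached 9207 ± 3940 (SD, n = 3) in WT and 5440 ± 4956 (n = 3) in KO at gd10.5, the second highest of all genes in both genotypes. It was the first of the 25 prolactin family genes at this stage, with 33.0% of their summed RPKM in WT and 23.9% in KO.

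At gd14.5, Prl8a2 had 2208, 2516 and 2356 CPM in WT and 2172, 2688 and 2251 CPM in KO. All 6 values were below the WT values of gd10.5, but KO gd10.5 replicate 2 was lower than any of them. In WT it fell 3.65-fold from gd10.5 to gd14.5 (log2 fold change -1.87 ± 0.28 SE, adjusted p = 9.9e-05). The KO difference was -1.11 ± 0.48 (adjusted p = 0.0799) and did not pass. This value rested on single libraries of KO gd10.5: without replicate 2 it was -1.50 with adjusted p = 0.00495, and without replicate 3, the highest of the group, -0.05 with adjusted p = 0.883. From gd14.5 on the levels stayed between 1472 and 3528 CPM, the 5th to 7th highest of the prolactin family per length, and no later step passed the test.

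Prl3c1, whose product is known as a decidual prolactin-like protein, had the opposite course and a far lower level. At gd10.5 it had 14.7, 13.7 and 6.26 CPM in WT and 4.71, 6.29 and 26.2 CPM in KO, so that KO replicate 3 exceeded all others. At gd14.5 the values were 43.1, 51.0 and 41.1 CPM in WT and 37.7, 33.8 and 31.97 CPM in KO, all above those of gd10.5. Prl3c1 rose 3.88-fold in WT (log2 fold change 1.96 ± 0.23, adjusted p = 1.2e-05) and 2.76-fold in KO (1.47 ± 0.48, adjusted p = 0.0275). The KO call did not hold without any 1 of KO gd10.5 replicate 1, KO gd10.5 replicate 2 or the 3 KO gd14.5 libraries (adjusted p of 0.0514 to 0.076, log2 fold changes of 1.07 to 1.51). Without KO gd10.5 replicate 3 the value was 2.64.

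Prl3c1 then stayed at 38.1 to 50.8 CPM in WT and 50.2 to 67.2 CPM in KO at gd16.5. By gd19.5 the WT libraries had 21.8, 22.9 and 21.9 CPM and the KO libraries 17.2, 15.2 and 19.4 CPM, without overlap with gd16.5 in either genotype. It fell in WT between these stages (log2 fold change -1.04 ± 0.22, adjusted p = 0.0146). This call was close to the fold limit of 1: it was lost without WT gd16.5 replicate 2 (-0.96) and, by adjusted p of 0.0511, 0.0526 and 0.0649, without each of the gd19.5 libraries. The KO difference was -1.73 ± 0.48 (adjusted p = 0.0921), and passed without KO gd10.5 replicate 2 (adjusted p = 0.0279) or KO gd10.5 replicate 3 (adjusted p = 0.00399), which enter the fit through the shared estimate of spread.

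The ratio of Prl8a2 to Prl3c1 per exon length followed from these opposite courses. Its median was 850.3 in WT and 395.1 in KO at gd10.5, and 50.7 in WT and 69.7 in KO at gd14.5. At gd16.5 it was 48.3 and 30.5, and at gd19.5 103.3 and 104.9. The lowest gd10.5 ratio, 306.2 in KO, was above the highest ratio of any later library, 159.5 in WT gd19.5.

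Prl6a1, another prolactin family member of the decidua, declined in 2 steps. WT libraries had 106.7, 131.3 and 120.6 CPM at gd10.5, then 22.8, 19.2 and 28.3 at gd14.5, and 4.59, 6.06 and 3.60 at gd16.5. KO libraries had 81.9, 85.4 and 106.1 CPM, then 24.6, 20.1 and 18.2, and 5.13, 4.75 and 7.07. No value of a stage overlapped with those of the next. Prl6a1 fell 5.10-fold and 4.88-fold in WT (log2 fold changes -2.35 ± 0.15 and -2.29 ± 0.17, adjusted p = 9.77e-08 and 4.65e-06), and 4.36-fold and 3.72-fold in KO (adjusted p = 2.51e-05 and 0.000122). The first KO step was -2.16 on the log2 scale without KO gd10.5 replicate 2. At gd19.5 it was at 4.88 ± 0.18 CPM in WT and 4.74 ± 0.33 CPM in KO (SD, n = 3 each), where the last step gave 0.04 ± 0.19 and -0.25 ± 0.18 on the log2 scale.

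Hand2 encodes a progesterone-induced factor that restrains growth factor signals to the uterine epithelium. It had 161.0, 178.4 and 116.3 CPM in WT at gd10.5 and 145.8, 51.7 and 179.4 CPM in KO, the lowest being KO replicate 2. At gd14.5 it was at 34.3, 32.2 and 37.5 CPM in WT and 40.4, 43.8 and 31.9 CPM in KO, below every library of gd10.5. Hand2 fell 4.37-fold in WT (log2 fold change -2.13 ± 0.23, adjusted p = 5.87e-06) and 3.26-fold in KO (-1.70 ± 0.34, adjusted p = 0.00225). It kept this call in KO without replicate 2 of gd10.5 (-2.07).

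From gd14.5 to gd16.5 Hand2 fell again in KO, by 3.45-fold (log2 fold change -1.79 ± 0.35, adjusted p = 0.00685). The WT difference was -0.93 ± 0.23 (adjusted p = 0.0124), just under the fold limit, and reached -1.23 without WT gd16.5 replicate 3, the library with the most Hand2 at that stage. The genotype difference of these steps is part of the interaction test given below, which Hand2 did not pass. At gd19.5 it stood at 14.4 ± 3.8 CPM (WT) and 18.6 ± 1.3 CPM (KO).

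Bmp2 encodes a ligand of the TGF-beta superfamily that is induced in stroma at implantation. Its CPM at gd10.5 was 72.8, 58.2 and 43.5 in WT and 72.2, 7.39 and 68.1 in KO. KO replicate 2 was thus at a level nearer to the later stages, while the other 5 libraries lay together. At gd14.5 it ranged from 3.95 to 5.26 CPM over both genotypes. Bmp2 fell 13.01-fold in WT (log2 fold change -3.70 ± 0.20, adjusted p = 2.21e-08), the largest change of the 7 genes, and 10.7-fold in KO (-3.42 ± 0.64, adjusted p = 0.00172). Without KO gd10.5 replicate 2 the KO value was -3.92. Later stages held 2.79 to 8.36 CPM and no further step passed.

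Il11ra1 encodes the ligand-binding chain of the interleukin 11 receptor, and was the steadiest of the genes. Group means ran from 65.6 CPM in KO gd16.5 to 96.7 CPM in WT gd10.5, a ratio of 1.47. The WT libraries of gd10.5 had 94.9, 117.5 and 77.7 CPM, all above the 72.0, 72.6 and 74.2 CPM of gd14.5. That step was -0.40 ± 0.11 on the log2 scale (adjusted p = 0.0091), under the fold limit, and no step of either genotype was called. The KO libraries of gd10.5 had 75.0, 66.2 and 104.4 CPM, and their step to gd14.5 was -0.08 ± 0.14 (-0.20 without KO gd10.5 replicate 2, 0.14 without KO gd10.5 replicate 3). Reads of Il11ra1 are partly shared: 21.2% of the 150-base windows of its main transcript occur in Gm13305 or Il11ra2, and reads that map to several places were not counted.

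Alpl rose as most of the others fell. At gd10.5 it had 49.5, 42.8 and 75.2 CPM in WT and 57.4, 103.0 and 38.4 CPM in KO, and at gd14.5 169.4, 182.2 and 149.9 CPM in WT and 149.2, 185.7 and 164.1 CPM in KO, with no overlap between the stages. The increase was 3.01-fold in WT (log2 fold change 1.59 ± 0.19, adjusted p = 1.67e-05) and 2.50-fold in KO (1.32 ± 0.31, adjusted p = 0.00575), or 1.80 on the log2 scale without KO gd10.5 replicate 2. It stayed between 81.9 and 198.8 CPM thereafter, with no later step past the test. Alpl is also expressed in other tissues, trophoblast included, and its highest value at gd10.5 was in KO replicate 2, where Bmp2, Hand2, Prl8a2 and Il11ra1 were at their lowest.

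**Figure D1:**
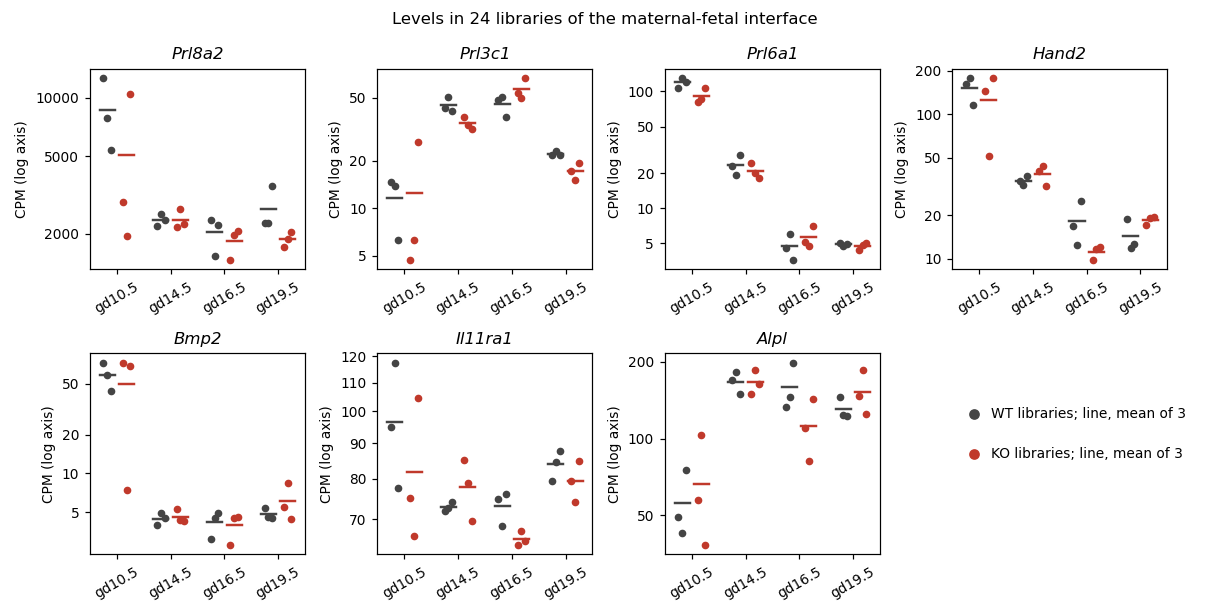
CPM of the 7 genes (log axis) in each of the 24 libraries by gestation stage, WT in grey and KO in red, with a line at the mean of 3 libraries. Prl8a2, Prl6a1, Hand2 and Bmp2 were highest at gd10.5, Prl3c1 and Alpl were lowest there, and Il11ra1 stayed within a narrow range.

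In all, 6 of the 7 genes were called in WT between gd10.5 and gd14.5, 4 lower and 2 higher, where 22.2% of 18523 tested genes were called (11.6% lower and 10.7% higher). In KO, 5 of 7 were called, 3 lower and 2 higher, against 18.7% of 18467 genes (10.2% lower, 8.53% higher). The count in KO was also 5 without KO gd10.5 replicate 2, with 4 lower and 1 higher, where 25.5% of genes were called. From gd14.5 to gd16.5, 1 gene was called in WT (5.6% of genes, 2.55% lower) and 2 in KO (7.53%, 2.76% lower), all 3 lower. From gd16.5 to gd19.5, 1 was called in WT, also lower (2.14% of genes, 0.939% lower), and 0 in KO (0.693%, 0.439% lower). For that last KO step, 1 of the genes had an unadjusted p under 0.05 (18.3% of all genes) and DESeq2 called 1, Prl3c1. Consecutive steps share the libraries of the stage between them, so the steps of a gene are not independent of each other.

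**Figure D2:**
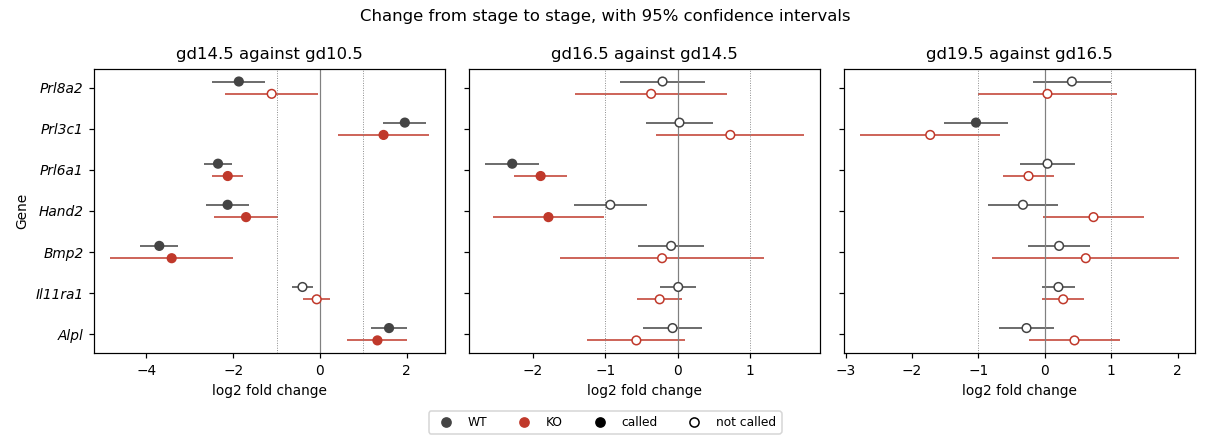
Log2 fold change of the 7 genes for each step between consecutive stages, with 95% confidence intervals, in WT (grey) and KO (red). Filled points were called, open points were not, and dotted lines mark the fold limit. The calls are concentrated in the step from gd10.5 to gd14.5.

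The order of the genes per exon length changed with gestation. In WT at gd10.5 Prl8a2 was followed by Prl6a1 at 103.1 ± 10.7 RPKM and Hand2 at 64.6 ± 13.6 RPKM, which did not overlap with each other. Il11ra1 (21.6 ± 4.5), Bmp2 (16.4 ± 4.1), Alpl (13.9 ± 4.2) and Prl3c1 (12.4 ± 5.0) came next, each overlapping its neighbour in that order. At gd19.5 in WT Prl8a2 (2864 ± 773) was followed by Alpl (32.4 ± 3.2), Prl3c1 (23.9 ± 0.7) and Il11ra1 (18.8 ± 0.9), with no overlap between these neighbours. Hand2 (6.12 ± 1.63), Prl6a1 (4.21 ± 0.15) and Bmp2 (1.36 ± 0.15) were lowest, again without overlap. By exon length, Bmp2 was thus the least abundant of the genes at term, 5th of them at gd10.5, and Prl3c1 moved from the last place to the third. This order depends on the length used. The exon length was 4471 bases for Il11ra1 and 4033 for Alpl, while the transcripts compared by windows had 2009 and 2522. Levels per transcript length were not computed.

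KO was next compared with WT at each stage, the question for which the series was made. None of the 7 genes was called at any of the 4 stages by the edgeR quasi-likelihood test, limma voom or DESeq2, where edgeR called 0.00572%, 0.0166%, 0.00586% and 0.023% of genes in order of stage. The shares were 0.00572%, 0.0222%, 0.00586% and 0.023% in limma voom and 0.0114%, 0.0166%, 0.264% and 0.103% in DESeq2. Of the 7 genes, 1, 1, 1 and 3 had an unadjusted p under 0.05, beside 0.801%, 6.78%, 11.1% and 13.5% of all genes. Groups without overlap numbered 1, 1, 2 and 2 of 7, each with KO below WT, against 2.35%, 6.1%, 9.62% and 8.58% of all genes in that direction and 4.18%, 12.5%, 17.7% and 21.4% in either. The 4 comparisons use different libraries.

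**Figure D3:**
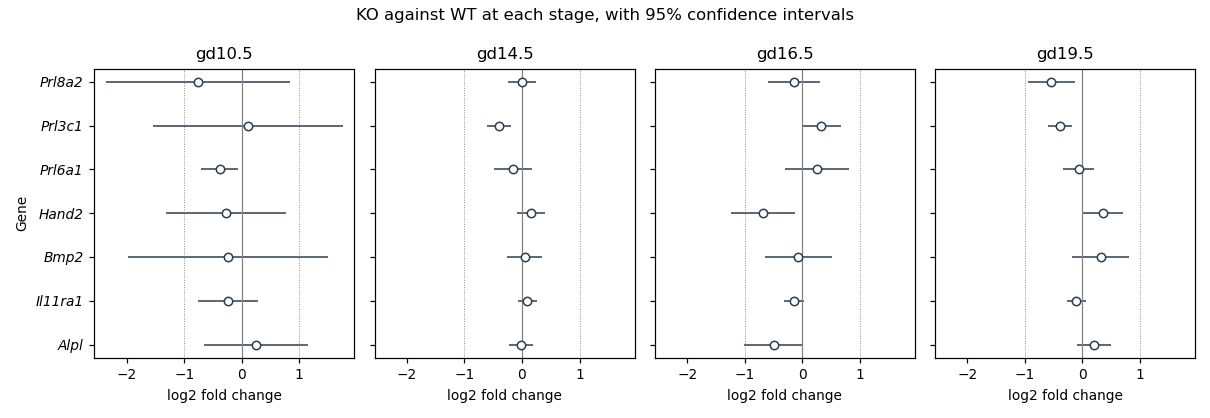
Log2 fold change of KO against WT for the 7 genes at each stage, with 95% confidence intervals and dotted lines at the fold limit. Every point is open because no gene was called, and the intervals are widest at gd10.5 for Prl8a2, Prl3c1 and Bmp2.

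At gd10.5, Prl6a1 was lower in every KO library than in every WT library, with a log2 difference of -0.39 (95% interval -0.71 to -0.07, edgeR adjusted p = 1). The interval of Prl8a2 was wide, from -2.36 to 0.84 around -0.76, and those of Prl3c1 (-1.54 to 1.75) and Bmp2 (-1.97 to 1.49) were wide too. These intervals include changes larger than the fold limit, so differences of that size were not excluded here. The same held for Hand2 (-1.31 to 0.77) and Alpl (-0.66 to 1.16). Without KO gd10.5 replicate 2 the differences were -0.37 for Prl8a2, -0.34 for Prl6a1, -0.10 for Il11ra1 and 0.42 for Prl3c1 (0.0336% of genes called), and 3 genes changed sign, none of them called: Bmp2 went from -0.24 to 0.27, Hand2 from -0.27 to 0.10 and Alpl from 0.25 to -0.21.

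At gd14.5 the genotypes lay close together. Prl3c1 was 37.7, 33.8 and 31.97 CPM in KO, below the lowest WT value of 41.1 CPM, with a log2 difference of -0.39 (interval -0.60 to -0.18, edgeR adjusted p = 0.517). The intervals of the other 6 genes all lay within -0.48 and 0.40, and that of Prl8a2 was -0.24 to 0.24. A change past the fold limit was therefore outside the interval of each of the 7 genes at this stage.

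At gd16.5 Hand2 was 17.0, 12.5 and 25.1 CPM in WT and 9.81, 11.7 and 12 CPM in KO, so that each KO library was below each WT library. The log2 difference was -0.69 (interval -1.24 to -0.13, edgeR adjusted p = 0.431). Il11ra1 had 74.9, 68.4 and 76.2 CPM in WT and 64.4, 67.3 and 65.1 CPM in KO, also without overlap (-0.15, interval -0.31 to 0.02). Prl3c1 differed the other way at this stage, by 0.33 (interval -0.01 to 0.67, edgeR adjusted p = 0.451). It had 48.3, 50.8 and 38.1 CPM in WT and 54.0, 50.2 and 67.2 CPM in KO, with overlap. Alpl differed by -0.49, also with overlap, and its interval of -1.01 to 0.02 reached past the fold limit. The log2 differences were -0.14 for Prl8a2, 0.26 for Prl6a1 and -0.07 for Bmp2, each with overlap. The summed stromal markers were lower in these KO libraries as well, 3251 to 3771 CPM against 4250 to 4706 CPM in WT, with 4 of 9 markers below WT in every library, as were 10 of the 30 regulators of decidualization, against the 9.62% of all genes in that direction. Spongiotrophoblast and glycogen cell markers were higher, 57450 to 62180 CPM against 33790 to 47380 CPM, with 5 of 6 above WT in every library (8.11% of all genes), and so were the trophoblast giant cell markers, 26160 to 30580 CPM against 17320 to 24810 CPM, with 4 of 6. The summed NK cell markers were lower, 12.3 to 19.2 CPM against 34.5 to 55.6 CPM. Of these 5 markers, 2 were below WT in every library and 2 were above it. The 2 above, Ncr1 and Klrb1c, had too few reads to pass the expression filter at this stage. The 3 that passed the expression filter were Prf1 (-1.84 on the log2 scale), Gzmb (-1.52) and Eomes (-0.26). None of them was called by edgeR, which called 0.00586% of all genes here, against 0.264% in DESeq2. The unadjusted edgeR p was 0.000174 for Prf1 and 0.00011 for Gzmb. The paper reported lower Prf1 and Gzmb RNA in KO at this stage, by its own DESeq2 test and by RT-qPCR. DESeq2 values of these markers are not given here. Summed smooth muscle markers were lower as well, 102 to 108.3 CPM against 131.2 to 165.4 CPM. So were the labyrinth markers, 382.4 to 589.4 CPM against 597.8 to 702.6 CPM. The sums of endothelial, yolk sac endoderm and neutrophil markers overlapped. Single genes of these lists did not all do so. In every library, 2 of 4 endothelial markers were below WT, and of 5 neutrophil markers 1 was below and 2 were above. The part of these differences in the values of Hand2, Il11ra1 and Prl3c1 was not tested.

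At gd19.5 the 2 prolactins Prl8a2 and Prl3c1 were lower in every KO library. Prl8a2 had 2277, 2264 and 3528 CPM in WT and 1720, 1890 and 2056 CPM in KO, a log2 difference of -0.54 (interval -0.94 to -0.14, edgeR adjusted p = 0.262). Prl3c1 differed by -0.39 (interval -0.60 to -0.18, edgeR adjusted p = 0.168), of the same sign as at gd14.5 and opposite to gd16.5. Hand2 differed the other way, by 0.35 (edgeR adjusted p = 0.367), with overlap. The log2 differences were 0.315 for Bmp2, 0.20 for Alpl, -0.11 for Il11ra1 and -0.07 for Prl6a1, each with overlap. The summed stromal markers overlapped at this stage (4931 to 5815 CPM in WT, 4828 to 5504 CPM in KO). The summed regulators of decidualization were higher in KO, 2537 to 2624 CPM against 2247 to 2397 CPM. Of these 30 genes, 6 were above WT in every library and 1 was below. Smooth muscle markers were higher too, 157.7 to 243.8 CPM against 111.5 to 142.1 CPM, with 4 of 5 above WT in every library. The summed NK cell markers were lower, 10.16 to 16.13 CPM against 16.94 to 21.95 CPM, with 2 of 5 below WT. Of all genes, 21.4% were without overlap in either direction, 8.58% with KO below WT and the rest of them with KO above it. The sums of the other cell marker lists overlapped. In every library, 2 of 9 stromal, 2 of 4 endothelial and 1 of 6 trophoblast giant cell markers were above WT, and 0 were below. The part of these differences in the values of the 7 genes was not tested.

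The genotype effect over the 4 stages together, fitted on all 24 libraries, ranged from -0.35 for Prl8a2 to 0.01 for Bmp2. None of the 7 genes was called, none had an unadjusted p under 0.05, and 0.0104% of 19299 genes were called. DESeq2 and limma voom called none of them either, beside 0.0415% and 0.0311% of all genes. The genotype-by-stage interaction gave adjusted p of 0.747 for Prl6a1 and Hand2 and 0.795 to 0.962 for the others in edgeR, where 0% of genes passed and 7.23% had an unadjusted p under 0.05, none of the 7 genes among them. None passed it in DESeq2, where 0.135% of all genes did, or in limma voom (0%). Without KO gd10.5 replicate 2, the lowest adjusted p was 0.294 for Hand2 and the highest 0.874 for Prl8a2, while 0.214% of all genes passed.

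**Figure D4:**
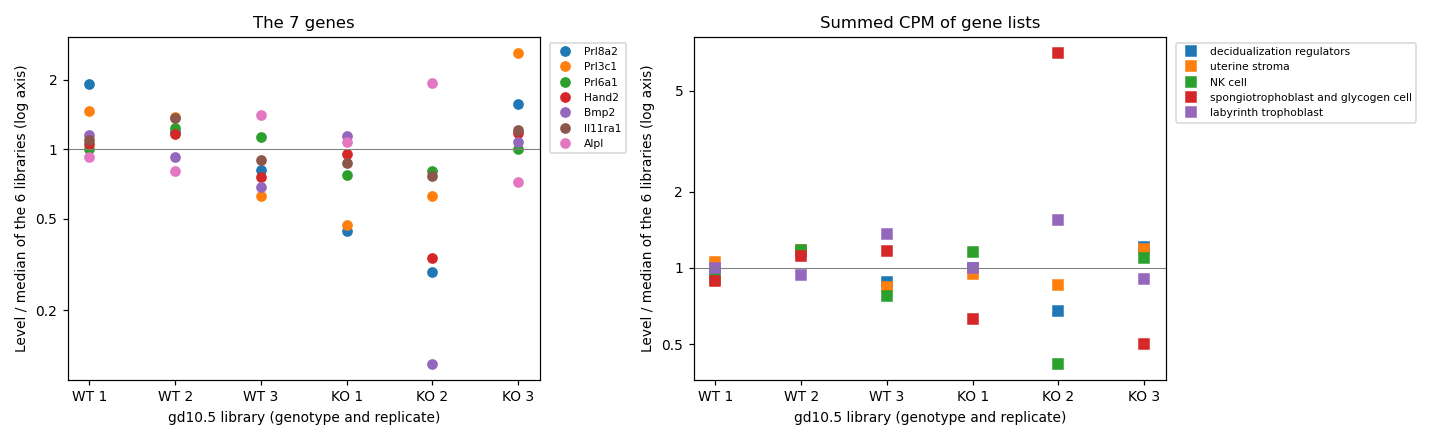
Levels in the 6 libraries of gd10.5 divided by their median (log axis), for the 7 genes on the left and for summed CPM of gene lists on the right. In KO replicate 2 the spongiotrophoblast and glycogen cell markers stand at 14090 CPM and Bmp2 at 7.39 CPM, far from the other libraries.

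Other regulators of decidualization were set beside these genes. In WT, 17 of 30 were called between gd10.5 and gd14.5, 14 lower and 3 higher (22.2% of all genes, 11.6% lower and 10.7% higher), with a median log2 fold change of -0.973 against -0.008 over all genes. In KO, 10 were lower and 2 higher (median -0.882), and without KO gd10.5 replicate 2, 16 were lower and 3 higher (median -1.089, 25.5% of genes called). The largest changes in WT were those of Fst, the gene of the activin antagonist follistatin, from 66.3 ± 10.1 to 17.7 ± 10.2 CPM (log2 fold change -1.92 ± 0.32, adjusted p = 0.000251), of the Wnt ligand gene Wnt4, from 57.4 ± 9.4 to 18.5 ± 1.0 CPM (-1.63 ± 0.11, adjusted p = 1.49e-07), and of the homeobox gene Msx2, which rose from 4.52 ± 0.85 to 14.1 ± 1.2 CPM (1.65 ± 0.14, adjusted p = 7.08e-07). In KO the same 3 genes were called in the same directions, at -1.32, -1.37 and 1.48 (-1.72, -1.74 and 2.14 without KO gd10.5 replicate 2).

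The genes called lower in WT included the progesterone receptor Pgr and the oestrogen receptor Esr1, as well as Hoxa10 and Hoxa11, homeobox genes required for decidualization. From gd14.5 to gd16.5 only Egfr, the epidermal growth factor receptor, was called of the 30 in WT (log2 fold change 1.55), where 5.6% of all genes were. In KO Egfr was called as well (1.42), and Gja1, Hoxa10, Hoxa11 and Pgr were called lower, at -1.08, -1.13, -1.24 and -1.32. Of all genes, 7.53% were called in this KO step, 2.76% lower. None of the 30 was called between gd16.5 and gd19.5 in either genotype, where 2.14% of genes were called in WT and 0.693% in KO.

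**Figure D5:**
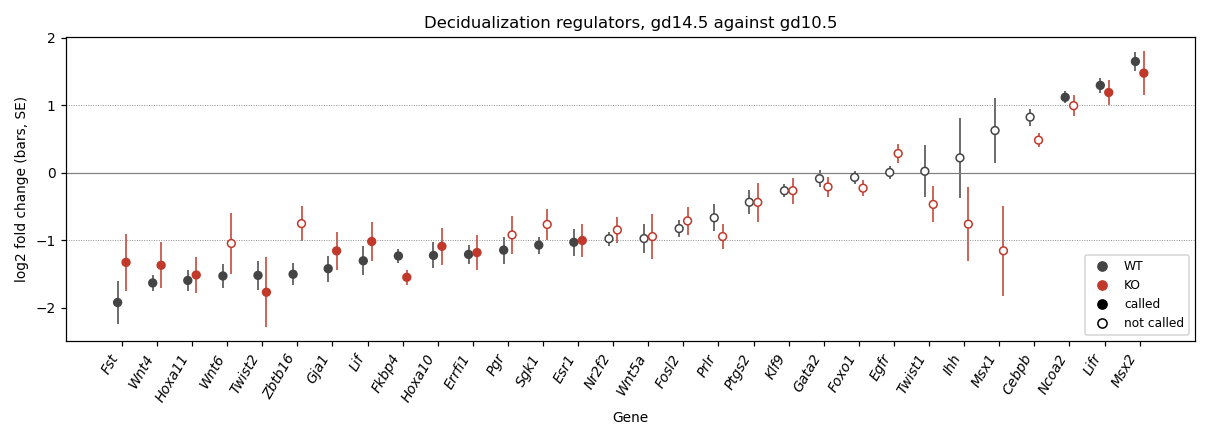
Log2 fold change (bars, SE) from gd10.5 to gd14.5 for 30 regulators of decidualization, in order of the WT value, in WT (grey) and KO (red). Filled points were called. Fst, Wnt4 and Hoxa11 lie at the low end and Msx2 at the high end in WT.

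Of the interleukin 11 pathway, 6 of 8 listed genes passed the filter in the stage comparisons. Socs3, a feedback inhibitor of this signal, was the only one called, from gd10.5 to gd14.5. Of all genes, 22.2% were called at this step in WT and 18.7% in KO. Socs3 fell from 47.6 ± 5.1 to 17.8 ± 2.1 CPM in WT (log2 fold change -1.41 ± 0.12, adjusted p = 6.21e-07) and from 41.4 ± 14.2 to 18.6 ± 1.9 CPM in KO (-1.16 ± 0.23, adjusted p = 0.00226). Without KO gd10.5 replicate 2, Socs3 was at -1.41 in KO and Il11 was called lower too (25.5% of all genes called). The ligand gene Il11 was at group means of 0.0842 to 0.622 CPM, near the limit of detection, and Il11ra2 had no count. Since reads mapping to several places were dropped, that 0 sets no limit on the level of this near-identical copy of Il11ra1.

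In the BMP pathway, 5 of 16 tested genes were called in WT between gd10.5 and gd14.5, 3 lower and 2 higher, a share near the 22.2% of all genes (11.6% lower, 10.7% higher), with a median of 0.128. In KO 2 were called lower and 2 higher without KO gd10.5 replicate 2 (25.5% of all genes). Smad9, which encodes a signal transducer of BMP receptors, fell with Bmp2, from 35.3 ± 4.1 to 2.36 ± 0.57 CPM in WT (log2 fold change -3.87 ± 0.23, adjusted p = 4.26e-08) and at -3.40 ± 0.63 in KO (-3.81 without KO gd10.5 replicate 2). Bmp7, another ligand gene, was called lower in both genotypes (-1.88 in WT, -2.08 in KO, and -2.39 in KO without that library), and Smad6, a gene of an inhibitory SMAD, was called lower in WT (-1.04). The antagonist gene Grem1 was called higher from a WT gd10.5 level of 0.0320 CPM, under the limit of detection, to 0.822 ± 0.503 CPM. Bmp4 rose later, from 3.72 ± 0.33 CPM at gd14.5 to 14.7 ± 2.1 CPM at gd16.5 in WT (1.98 ± 0.23, adjusted p = 8.81e-05) and by 2.10 ± 0.19 in KO. Levels of Bmp2 and Bmp4 therefore moved at different steps.

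Hand2 is known to lower stromal fibroblast growth factors, and among 8 genes of this circuit 3 were called higher and 1 lower in WT between gd10.5 and gd14.5 (median -0.018), where 10.7% and 11.6% of all genes were. Muc1, an epithelial mucin gene, rose from 16.45 ± 5.9 to 104.5 ± 11.5 CPM (log2 fold change 2.68 ± 0.24, adjusted p = 1.35e-06), and at 2.27 ± 0.46 in KO (3.18 without KO gd10.5 replicate 2). Fgf18 was called higher at both early steps but stayed at or under 1.499 CPM on average in every group, with gd10.5 under the limit of detection. Fgf9 was at 0.226 ± 0.081 CPM at gd10.5 and 0.527 ± 0.045 CPM at gd14.5 in WT (1.23 ± 0.32, adjusted p = 0.00571). Il15, the cytokine gene on which uterine NK cells depend, was called lower in both genotypes (-1.05 in WT and -1.22 in KO, or -1.55 in KO without that library). None of the genes of these 4 lists was called by edgeR in KO against WT at any stage. At gd19.5, the summed level of each of these lists was higher in every KO library than in every WT library. Most single genes did not follow in 3 of the lists. Above WT in every library were 3 of 8 interleukin 11, 9 of 17 BMP, 6 of 30 regulator and 1 of 8 Hand2 circuit genes. Below it were 2 BMP genes and 1 regulator. Of all genes, 21.4% were without overlap in either direction, 8.58% with KO below WT.

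The same step changed the markers of most cell types in the sample. In WT, 5 of 6 spongiotrophoblast and glycogen cell markers were called higher at gd14.5 (median 4.105), where 10.7% of all genes were, as were 3 of 4 tested labyrinth markers and 2 of 5 smooth muscle markers, whereas all 5 NK cell markers were called lower (median -2.998), where 11.6% of all genes were. Of 9 stromal markers 2 were called lower and 2 higher: Thy1 fell from 63.7 ± 17.6 to 8.64 ± 2.13 CPM, and Lum, a collagen-binding proteoglycan gene, rose from 49.9 ± 21.8 to 517.4 ± 27.4 CPM. The part of these shifts in the changes of the 7 genes was not tested.

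The other 22 genes named Prl on chromosome 13 went both ways at this step, with 8 called higher and 8 lower in WT and 7 and 7 in KO (median log2 fold changes of 0.301 and 0.268). Of all genes, 22.2% were called in WT and 18.7% in KO. In KO 9 were called higher and 8 lower without KO gd10.5 replicate 2 (25.5% of all genes called). Reads could in part be shared between these genes, but no 150-base window of Prl8a2 or Prl3c1 occurred in another gene. The nearest relative of Prl8a2, Prl8a1, matched it at 73.9% over the aligned part. Prl6a1 shares 153 exon bases (13.2%) with Gm11357, and Hand2 shares 461 exon bases (19.6%) with Hand2os1 on the opposite strand. Counting ignored strand and left out reads that overlap several genes, so reads in these shared bases were not counted.

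Genes with the most similar course were sought among 19299 genes by the root mean square (RMS) difference of centred log2 CPM over the 24 libraries, which share tissue makeup and depth. Nearest to Bmp2 were Atoh8 (0.303), Jam3 and I730028E13Rik, and nearest to Hand2 were Mrgprf (0.257), Nccrp1 and Map7d2. Atoh8 was at 53.7 ± 9.1 CPM in WT gd10.5 and 4.75 ± 0.50 CPM in WT gd14.5. Nearest to Prl6a1 were Ccna2, Cdca8 and Ttk (0.336 to 0.347), all of them genes of cell division, with Ccna2 at 75.0 ± 11.4, 23.0 ± 5.6, 5.29 ± 0.75 and 3.88 ± 0.48 CPM in WT in order of stage.

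Abcc5, Tshz2 and Ano1 were nearest to Prl8a2 (0.332 to 0.354) and Fkbp11, Cthrc1 and Efna3 to Prl3c1 (0.512 to 0.536), for which no gene lay within 0.5. Alpl had Gprc5c (0.185), Esx1 and Tmem94 nearest, of which Esx1 is a homeobox gene of trophoblast. For Il11ra1 the nearest were Ggps1, Bet1 and Marchf8 (0.102 to 0.107), but 58.8% of all genes lay within 0.5 of its flat course. The 3 nearest genes were the same with a prior count of 0.5 except Map7d2 and I730028E13Rik.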

How the data were processed

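Polyadenylated RNA of the MFI was measured in 24 libraries. The authors deposited 1 table of raw counts per gene, made from 150 bp paired-end reads of stranded libraries with Trim Galore 0.6.4, STAR 2.7.3a on GRCm38 and featureCounts of Subread 2.0.0 at default settings, which ignore strand and leave out reads mapping to several places. The exon length beside each gene, another quantity in the deposited table, served for RPKM. Of the 31 columns of the table, 24 are libraries and all were used. KO replicates carry the numbers 1 to 3 of their descriptions (3 to 5 in their titles).

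Testing of the counts used edgeR 4.0.16 (R 4.3.3) with TMM normalization and glmQLFTest, on genes with enough reads by filterByExpr (10 per library, 15 in total). KO was compared with WT on the 6 libraries of a stage, and consecutive stages on the 12 libraries of a genotype. The additive and interaction models used all 24. Genes called had a Benjamini-Hochberg adjusted p under 0.05 over all genes tested and an absolute log2 fold change over 1. All p-values are two-sided. CPM used the TMM-normalized library sizes of all 24, and log2 CPM a prior count of 2. Standard errors and 95% intervals came from the same fits. Sequence windows were compared with BLAST 2.17.0 and Python 3.11.15 against GENCODE M21. Fits were tested on simulated counts first.

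The 7 genes and the other lists were chosen with earlier results of these data known. All 7 genes were tested in every comparison, and not every value is printed. Of the other lists, the 3 genes with the largest change among those called in WT steps or in KO against WT are named, and other genes named were chosen after their values were seen. The 3 nearest genes of each of the 7 are named too. Alternatives were RLE size factors, no filter or at least 10 counts in every library, DESeq2 1.42.0, limma 3.58.1 voom with quality weights, other thresholds, other libraries in the fit, a replicate block, leaving out each library, and edgeR's bias-adjusted quasi-likelihood, which was added after seeing the data, as were the list counts and the values of list genes without KO gd10.5 replicate 2. Detection limits cover counting error only.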

Additional observations from a re-analysis of the deposited data

How the results depend on the processing

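No member was called in KO against WT at any stage, over all 4 stages or in the interaction under any alternative, the replicate block included (0 members each). Same-numbered KO and WT libraries of a stage had correlated deviations over 0.1 in 5 of 12 pairs (range -0.455 to 0.406, against -0.585 to 0.569 for other numbers, so that not every library correlated best with its own), and no pairing was assumed. The replicate block changed no count of called members. The counts moved by over 1.5 times for 3 steps. From gd14.5 to gd16.5 in WT, 2 members were called with limma voom and with no fold limit, and 1 to 2 when 1 library was left out (2 without WT gd16.5 replicate 3). From gd16.5 to gd19.5 in KO, 1 was called with DESeq2, adjusted p under 0.1, all 24 libraries in one fit, limma voom, no expression filter or only the 6 libraries of both stages, and 0 to 1 when 1 library was left out (1 without KO gd10.5 replicate 2 or 3). From gd16.5 to gd19.5 in WT, 0 were called with all 24 libraries in one fit, and 0 to 1 when 1 library was left out. The member concerned was Hand2 in the first case and Prl3c1 in the others. Smaller moves were seen from gd10.5 to gd14.5: over alternatives other than leaving out a library, 6 to 7 members were called in WT and 4 to 6 in KO, and 4 to 5 in KO when 1 library was left out. The cause of these shifts was not tested.

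Of 1876 single-gene comparisons with an alternative, 1797 kept direction and side of the threshold and 52 changed sign, none of them for a called value. Other than by leaving out a library, Alpl at gd14.5 (KO against WT) was 0.03, Hand2 over all stages 0.07, Prl3c1 at gd10.5 (KO against WT) -0.55 and Prl6a1 from gd16.5 to gd19.5 in WT -0.01 with limma voom. With the replicate block, Prl3c1 at gd10.5 was -0.33 and Prl8a2 at gd14.5 was 0. Leaving out 1 library gave log2 ranges that cross 0 for KO against WT in Alpl (-0.21 to 0.53 at gd10.5, -0.10 to 0.06 at gd14.5, -0.12 to 0.05 over all stages), Bmp2 (-0.62 to 0.27, -0.05 to 0.13 and, at gd16.5, -0.24 to 0.12, with -0.07 to 0.16 over all stages), Hand2 (-0.62 to 0.10 at gd10.5), Prl3c1 (-1.07 to 0.49 at gd10.5) and Prl8a2 (-0.10 to 0.06 at gd14.5). It did so for the WT step to gd16.5 in Alpl (-0.26 to 0.05), Bmp2 (-0.22 to 0.09), Il11ra1 (-0.02 to 0.05) and Prl3c1 (-0.06 to 0.14), the WT step to gd19.5 in Prl6a1 (-0.12 to 0.25), and in KO for Il11ra1 to gd14.5 (-0.20 to 0.14) and Prl8a2 to gd19.5 (-0.10 to 0.14). The KO step of Prl8a2 to gd14.5 ranged from -1.50 to -0.05, the latter without KO gd10.5 replicate 3.

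Depth does not limit the 7 genes, whose lowest value was 2.79 CPM, well above the detection limit. With 3 libraries a group, precision is set by the spread between libraries.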
